A study of Mus musculus with 9 samples.

Results

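The respiratory chain assembly factors were 49 protein-coding genes, taken by gene symbol from the 49315 gene IDs of the count table. They comprised the Ndufaf, Sdhaf, Uqcc, Coa, Cox10 to Cox20 and Atpaf symbols present in the GRCm38 annotation, together with named factors such as Surf1, Sco1, Bcs1l, Acad9 and Tmem70. By the complex they serve, 13 belonged to complex I, 4 to complex II, 6 to complex III, 23 to complex IV and 3 to complex V. The rule uses gene names and no measured value, although it was written with earlier results of these data known.

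Bulk RNA-seq was available for 3 kinds of cells sorted after 2 days of co-culture, with 3 libraries each. SB28 is a mouse glioblastoma (GBM) cell line on the C57BL6 background that here carried GFP. It was grown in equal numbers with primary neonatal astrocytes from C57BL6 mito::mKate2 mice, a transgenic line whose mitochondria carry the red fluorophore mKate2. mKate2+ SB28 cells carried the red signal of astrocyte mitochondria, mKate2- SB28 cells from these co-cultures had no red signal, and the sorted donor astrocytes formed the third group. All 3 groups had therefore been co-cultured, and SB28 is a single cell line. The libraries held 24454561 to 39287841 assigned reads, of which the assembly factors took between 0.09505% and 0.1524%.

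Assembly factors are not part of the finished respiratory chain. They insert heme, copper, flavin and iron-sulfur cofactors, hold newly made subunits, many of them encoded by mitochondrial DNA, until their partners arrive, and join the assembly modules of each complex in the inner membrane. They are best known from inherited defects of oxidative phosphorylation, in which the loss of a single factor removes an entire complex from brain, heart or muscle.

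The astrocyte libraries carried the astrocyte markers Slc1a3, at 171.4 to 228 CPM (read counts scaled by library size) against 0.6092 to 2.347 in SB28 cells, and Aldh1l1, at 107.9 to 166.5 against 4.981 to 9.221. Of 15 astrocyte markers, 9 were at least 10 times higher in astrocytes than in either SB28 group, Gjb6 had no counts in any library, and Gja1, the most abundant over all 9 libraries, was higher in SB28 cells. In the astrocytes themselves Apoe stood above Gja1, at 252.3 to 266.4 against 169.8 to 208.6 CPM. The 15 markers summed to 1222, 1165 and 1895 CPM in astrocytes and to 500.8 to 583.2 CPM in the 6 SB28 libraries. Markers of the oligodendrocyte lineage also moved with the groups, with a summed level over 8 genes of 855.5, 430.6 and 491.4 CPM in astrocytes and 17.34 to 26.64 CPM in SB28 cells. Olig1 was the most abundant of these 8 genes, and Sox10 was at or near 0 throughout. Of the 10 microglia and macrophage markers only 2 passed 1 CPM in at least 2 libraries, with Tmem119 the most abundant and Ptprc between 0 and 0.2965 CPM, and the list summed to 28.24 to 41.21 CPM in astrocytes and 46.99 to 66.65 CPM in SB28 cells. Over the 8 endothelial and fibroblast markers the sum was 966.5 to 1391 CPM in astrocytes and 535.3 to 750.9 CPM in SB28 cells, led by Col1a2. The part that cells other than astrocytes had in the comparisons with astrocytes was not tested, and in bulk libraries fewer cells of a type and less RNA per cell cannot be told apart.

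Nearly all of the assembly factors were expressed. The filter for testing, more than 1 CPM in 2 or more of the 6 libraries compared, was passed by 47 of 49, and the counts and medians over assembly factors given for each comparison are over these 47. All 47 exceeded 1 CPM in 2 or more libraries of each group. Sco2, a copper carrier for the COX2 subunit, had raw counts of 10, 14 and 23 in astrocytes, 24, 33 and 36 in mKate2- cells, and 34, 2 and 28 in mKate2+ cells. Its exons share 68.3% of their bases with Tymp and 66.2% with Ncaph2, so its reads may have been set aside as ambiguous. Pet117 had no counts in any library, but all 693 bases of its exons lie within exons of Kat14 on the same strand, and its 0 is therefore no measure of its expression.

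Per length, on the RPKM scale and as means of the 3 mKate2- libraries, the most abundant assembly factors were Coa3 at 61.56 and Cox14 at 58.96, both of which bind newly made COX1. They were followed by Uqcc2, which stabilizes new cytochrome b, at 44.95 and by Tmem70, which builds the c-ring of ATP synthase, at 44.11. At the other end of the 47 were Lyrm7, a chaperone of the Rieske iron-sulfur protein, at 0.9864 and Pet100, a complex IV factor, at 1.561. Summed over the 49 genes, the TMM-normalized levels were 1102, 1039 and 919.7 CPM in astrocytes, 1296, 1182 and 1290 CPM in mKate2- cells, and 1234, 1659 and 1354 CPM in mKate2+ cells. Each SB28 library lay above each astrocyte library in this sum. The 1659 CPM belonged to replicate 2 of the mKate2+ cells, a library that stood apart from the other SB28 libraries and is described with the comparison of mKate2+ and mKate2- cells. Assembly factors were short, with a median exonic length of 2490 bases, against 1675 for the nuclear-encoded subunits and 4406 for the 13450 genes that exceeded 1 CPM in 2 or more of all 9 libraries.

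RefSeq promoter windows (GRCm38.p6), from 250 bases before to 50 bases after a transcription start, were found for 43 of the 49 genes, in 45 windows. The letters CCGGAAG, a binding motif of ETS factors such as GABP, were present on either strand in 44.4% of these windows, compared with 22.5% of 71 windows of nuclear-encoded subunits, 11.9% of all protein-coding windows and 8.86% of all windows. The NRF1 core, GCGC and TGCGC with 1 base of any kind between them, was in 11.1% of assembly factor windows, in 26.8% of subunit windows, in 6.61% of protein-coding windows and in 4.6% of all windows. For the YY1 motif AAGATGGCG the shares were 8.89%, 9.86%, 1.93% and 1.4%, for CCAAT 46.7%, 40.8%, 37.8% and 37.4%, and for the E-box CACGTG 13.3%, 11.3%, 8.03% and 7.15%. None of these motifs contains another, and all were searched on both strands. The windows were rich in CpG, with a median of 22 CpG per window against 14 over protein-coding windows, so part of the motif shares may follow base composition, which was not tested. A match is a description of the letters, not of a bound factor. The windows of the 5 called assembly factors with the largest increase in mKate2- cells over astrocytes and, last, of the 2 with the largest decrease, Sdhaf4 and Higd2a, are printed 5′ to 3′ on the strand of the gene. Capitals mark CCGGAAG or its reverse complement and the NRF1 core on either strand. The coordinates are chr19:43752951-43753250 (minus strand) for Cox15, chr8:116921387-116921686 (minus) for Cmc2, chr11:67052420-67052719 (plus) for Sco1, chr2:140170396-140170695 (plus) for Ndufaf5, chr6:6955768-6956067 (plus) for Sdhaf3, chr1:24005591-24005890 (minus) for Sdhaf4 and chr13:54589981-54590280 (plus) for Higd2a.
Cox15: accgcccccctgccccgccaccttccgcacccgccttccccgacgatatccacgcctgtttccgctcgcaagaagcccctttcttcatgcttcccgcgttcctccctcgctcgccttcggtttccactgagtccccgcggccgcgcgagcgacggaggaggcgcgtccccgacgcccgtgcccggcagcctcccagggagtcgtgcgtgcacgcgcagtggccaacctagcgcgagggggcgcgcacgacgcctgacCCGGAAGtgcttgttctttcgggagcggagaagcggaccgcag
Cmc2: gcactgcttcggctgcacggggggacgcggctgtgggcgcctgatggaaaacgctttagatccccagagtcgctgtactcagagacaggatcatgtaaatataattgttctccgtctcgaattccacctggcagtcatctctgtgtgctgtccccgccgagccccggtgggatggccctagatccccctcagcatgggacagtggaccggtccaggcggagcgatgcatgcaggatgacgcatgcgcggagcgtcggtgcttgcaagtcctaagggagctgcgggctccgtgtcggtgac
Sco1: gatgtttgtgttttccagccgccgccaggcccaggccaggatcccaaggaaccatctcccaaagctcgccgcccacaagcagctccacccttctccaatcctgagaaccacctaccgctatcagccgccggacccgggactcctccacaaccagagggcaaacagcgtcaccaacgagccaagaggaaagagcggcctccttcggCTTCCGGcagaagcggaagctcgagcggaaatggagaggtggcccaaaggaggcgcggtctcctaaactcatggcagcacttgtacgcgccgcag
Ndufaf5: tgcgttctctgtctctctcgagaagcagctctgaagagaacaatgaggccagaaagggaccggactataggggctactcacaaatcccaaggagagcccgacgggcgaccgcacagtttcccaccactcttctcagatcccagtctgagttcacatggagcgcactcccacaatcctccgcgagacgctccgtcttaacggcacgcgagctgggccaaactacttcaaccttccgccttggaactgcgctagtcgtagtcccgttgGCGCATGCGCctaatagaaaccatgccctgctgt
Sdhaf3: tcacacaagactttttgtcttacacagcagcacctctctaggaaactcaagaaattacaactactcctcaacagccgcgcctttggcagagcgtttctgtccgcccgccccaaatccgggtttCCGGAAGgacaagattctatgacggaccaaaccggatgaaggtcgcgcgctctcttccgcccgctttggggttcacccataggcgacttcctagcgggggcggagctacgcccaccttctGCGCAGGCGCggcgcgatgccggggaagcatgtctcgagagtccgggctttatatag
Sdhaf4: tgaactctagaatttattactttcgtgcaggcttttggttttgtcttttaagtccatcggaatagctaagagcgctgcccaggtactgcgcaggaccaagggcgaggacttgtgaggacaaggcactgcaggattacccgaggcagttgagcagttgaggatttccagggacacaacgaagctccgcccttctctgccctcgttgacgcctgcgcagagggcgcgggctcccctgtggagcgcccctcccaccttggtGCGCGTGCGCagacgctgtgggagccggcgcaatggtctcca
Higd2a: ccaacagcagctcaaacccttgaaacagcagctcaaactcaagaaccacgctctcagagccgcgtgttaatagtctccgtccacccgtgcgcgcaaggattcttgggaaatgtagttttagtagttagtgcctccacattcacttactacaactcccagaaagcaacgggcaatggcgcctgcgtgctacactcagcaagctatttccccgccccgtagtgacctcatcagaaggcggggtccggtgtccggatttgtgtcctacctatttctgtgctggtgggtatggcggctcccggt

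Cox15 and Sco1 each carried 1 ETS match, Ndufaf5 and Sdhaf4 each carried 1 NRF1 match, Sdhaf3 carried both, and Cmc2 and Higd2a carried neither. Among the 19 tested assembly factors with an ETS match, 8 were higher in mKate2- cells than in astrocytes and 1 was lower, and among the 22 without one, 9 were higher and 6 were lower (adjusted p below 0.05), where 29.3% and 33.8% of all genes tested were called higher and lower. The median log2 differences were 0.40 with an ETS match and 0.27 without. For the NRF1 core they were 0.79 over 5 genes with a match, 4 of them higher and 1 lower, and 0.28 without. For the E-box they were -0.13 over 5 genes, 1 of them higher and 2 lower, and 0.43 without, but in mKate2+ cells the same 5 genes had a median of 0.31, with 1 higher and 1 lower, against 0.50 without a match. For YY1 the medians were 0.42 over 4 genes and 0.30, and for CCAAT 0.28 over 20 genes and 0.40. The difference between genes with and without a match was not tested.

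The first comparison asked how SB28 cells without the red signal differ from the astrocytes they were grown with. Assembly factors were more often higher than lower in the tumor cells, among them both heme A enzymes of complex IV, all 3 factors of ATP synthase and 7 of 13 factors of complex I. At an adjusted p below 0.05, 19 of 47 were higher (40.4%) and 7 were lower (14.9%) in mKate2- cells, where 29.3% and 33.8% of all 13356 genes tested were called higher and lower. The median log2 difference was 0.35 over the assembly factors and -0.04 over all genes. The differences were modest: at an absolute log2 difference above 1, the threshold used in the study, only Cox15 was higher and Sdhaf4 and Higd2a were lower, where 11.5% and 22.4% of all genes passed that threshold. In 22 assembly factors all mKate2- libraries lay above all astrocyte libraries, and in 10 all lay below, where 34% and 36.9% of all genes did so.

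The second comparison set mKate2+ cells against the astrocytes that had donated the mitochondria. Of 47 assembly factors, 25 were higher (53.2%) and 3 were lower (6.38%), where 28% and 32.1% of the 13342 genes tested were called. The median log2 difference was 0.46 against -0.02 over all genes. At an absolute log2 difference above 1, Uqcc2, Cmc2, Cox15, Ndufaf8 and Sco1 were higher and Sdhaf4 was lower, where 12.2% and 22.8% of all genes passed. Without mKate2+ replicate 2, Cmc2, Cox15 and Sco1 were past this threshold as higher and Sdhaf4 and Higd2a as lower, where 11.9% and 22.2% of all genes passed, while Uqcc2 was at 0.83 and Ndufaf8 at 0.53 (adjusted p = 0.101). In that fit 16 were higher (34%) and 6 were lower (12.8%) with a median of 0.46, where 26.1% and 29.9% of the 13286 genes tested were called. Both comparisons use the same 3 astrocyte libraries, so a gene called in both is not an independent repeat. That was so for 19 higher and 3 lower genes, while 4 were called in mKate2- cells alone (Higd2a, Ndufaf3, Pet100 and Uqcc3, all lower), 6 in mKate2+ cells alone (Bcs1l, Coa7, Ndufaf2, Ndufaf6, Ndufaf8 and Timmdc1, all higher) and 15 in neither. Without mKate2+ replicate 2 none of these 6 was called in mKate2+ cells by edgeR (adjusted p = 0.0608 to 0.101), and Higd2a and Ndufaf3 were called lower there too. The calls in 1 SB28 group alone do not show that the 2 SB28 groups differed, which the third comparison tested. The share of all genes called in both comparisons, or in 1 alone, was not counted.

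**Figure D1:**
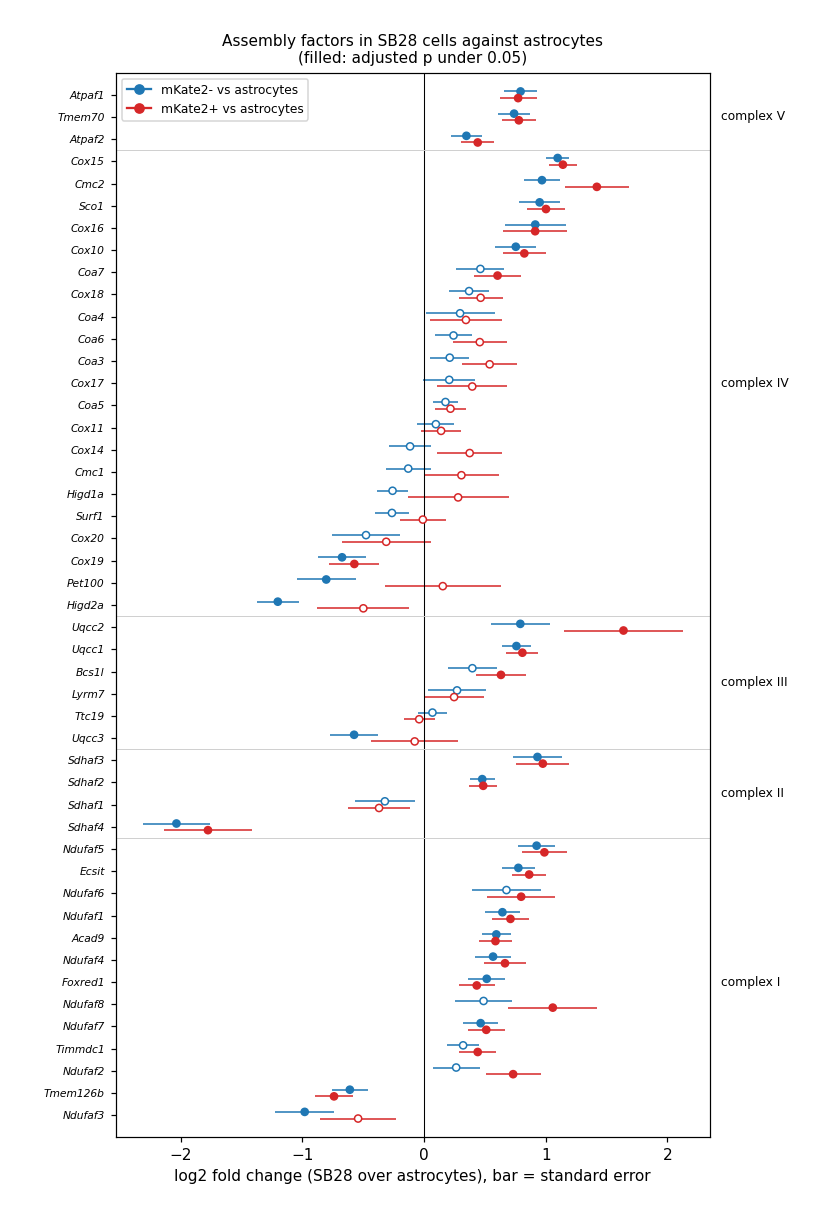
Log2 fold change of the 47 assembly factors in mKate2- (blue) and mKate2+ (red) SB28 cells over astrocytes, grouped by complex, with standard errors and filled points for an adjusted p below 0.05. Most points lie to the right of 0, from 1.64 (Uqcc2 in mKate2+ cells) down to -2.04 (Sdhaf4 in mKate2- cells), and the 3 complex V factors are filled in both colors.

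Complex IV held both the clearest increase and some of the clearest decreases. The 2 enzymes that make heme A, the cofactor of the COX1 subunit, were higher in both SB28 groups. Cox15, the heme A synthase, had levels of 33.11, 33.87 and 34.31 CPM in astrocytes, 71.7, 69.55 and 75.07 CPM in mKate2- cells, and 77, 69.42 and 77 CPM in mKate2+ cells. The groups of tumor cells and astrocytes lay far apart, with little spread within any of them. Cox15 was 2.14-fold higher in mKate2- cells (log2 difference 1.10 ± 0.10, SE, adjusted p = 5.91e-05) and 2.21-fold higher in mKate2+ cells (1.14 ± 0.11, adjusted p = 0.000149), the smallest adjusted p among the assembly factors in each comparison. Cox10, which makes the heme O that Cox15 converts, was higher by 0.75 and 0.82 on the log2 scale.

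Among the 8 tested factors of copper delivery, 3 were higher and 1 was lower in each comparison. The shares of all genes called higher and lower were 29.3% and 33.8% in mKate2- cells, and 28% and 32.1% in mKate2+ cells. Sco1, which carries copper to COX2, was at 8.629, 10.16 and 9.115 CPM in astrocytes, 19.12, 14.96 and 19.73 CPM in mKate2- cells, and 17.93, 18.25 and 19.78 CPM in mKate2+ cells. All 6 SB28 libraries lay above the 3 astrocyte libraries, and the fold was 1.93 in mKate2- cells (adjusted p = 0.00174) and 2.00 in mKate2+ cells (adjusted p = 0.00115). Cmc2, a small twin CX9C protein, was at 12.51, 11.7 and 10.05 CPM in astrocytes, 24.02, 21.5 and 21.35 CPM in mKate2- cells, and 23.78, 43.75 and 24.22 CPM in mKate2+ cells. It was higher in both groups as well (log2 0.97 ± 0.15, adjusted p = 0.000752, and 1.42 ± 0.26, adjusted p = 0.00248), and without mKate2+ replicate 2, the library at 43.75, the second difference was 1.08. Cox16, which helps to bring copper to COX2, had 5.822, 7.26 and 4.048 CPM in astrocytes against 12.12, 9.532 and 10.54 CPM in mKate2- cells and 9.301, 12.41 and 10.56 CPM in mKate2+ cells. Its log2 difference was 0.91 in both comparisons (adjusted p = 0.0139 and 0.0186). The call was lost without mKate2- replicate 1 (adjusted p = 0.0576) and without mKate2+ replicate 2 or 3 (adjusted p = 0.0578 and 0.0524), and 56.8% of its exonic bases are also annotated to Gm20498. Cox19, another twin CX9C protein, was the copper factor that was lower, at 40.26, 28.98 and 25.03 CPM in astrocytes, 21.84, 17.76 and 19.27 CPM in mKate2- cells and 19.22, 24.56 and 19.48 CPM in mKate2+ cells. The groups did not overlap, but the margin was small, and its differences were -0.67 and -0.57 (adjusted p = 0.0174 and 0.0424). The Cox19 call in mKate2- cells was lost without mKate2- replicate 2 or 3. In mKate2+ cells it was lost without astrocyte replicate 1 or 2 and without mKate2+ replicate 1 or 3. Cox17, the chaperone that hands copper to Sco1 and Cox11, was not called, nor were Cox11, Cmc1 and Coa6, with log2 differences of -0.13 to 0.46 over both comparisons. Without mKate2+ replicate 2 the differences of Cox17, Cox11, Cmc1 and Coa6 in mKate2+ cells were 0.088, 0.168, -0.125 and 0.203, again not called. Tom1l1, on the opposite strand, shares 48.3% of the exonic bases of Cox11.

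None of the 5 factors of COX1 and COX2 maturation was called in either comparison. Of all genes tested, 63.1% were called in either direction in mKate2- cells and 60.1% in mKate2+ cells. Surf1, whose loss causes Leigh syndrome, differed by -0.26 in mKate2- and -0.01 in mKate2+ cells (adjusted p = 0.126 and 0.966), and Cox18, which inserts COX2 into the membrane, by 0.37 and 0.46 (adjusted p = 0.0865 and 0.0561). Coa3, Cox14 and Cox20 differed by -0.48 to 0.54. Without mKate2+ replicate 2 their differences in mKate2+ cells were 0.30, 0.03 and -0.72, and none was called. For Cox20 the reads are uncertain, since 91.1% of its exonic bases overlap those of Hnrnpu on the opposite strand and the strand setting of the counting is not given in the sources used here.

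The remaining 6 tested factors of complex IV included 2 that were lower in mKate2- cells, where 33.8% of all genes tested were called lower. Higd2a, a small inner membrane protein that helps to assemble complex IV and supercomplexes, was at 51.24, 44.59 and 32.99 CPM in astrocytes and at 18.87, 18.34 and 18.61 CPM in mKate2- cells. In mKate2+ cells it was at 19.8, 51.04 and 20.4 CPM, so that 2 libraries were level with the mKate2- cells and replicate 2 was level with the astrocytes. It was lower in mKate2- cells by a log2 difference of -1.20 ± 0.17 (adjusted p = 0.000614). In mKate2+ cells the difference was -0.50 ± 0.38 (adjusted p = 0.281), and without replicate 2 it was -1.09 ± 0.22 (adjusted p = 0.00654). Pet100 had 5.739, 4.593 and 4.351 CPM in astrocytes, 2.939, 2.494 and 2.942 CPM in mKate2- cells and 2.952, 10.08 and 3.321 CPM in mKate2+ cells. It was lower in mKate2- cells (-0.80 ± 0.24, adjusted p = 0.0211), a call that was lost without any 1 of the 3 mKate2- libraries, and 52.6% of its exonic bases overlap Pcp2 on the opposite strand. In mKate2+ cells its difference was 0.15 with all libraries and -0.63 (adjusted p = 0.0978) without replicate 2. Of the other 4, Coa7 was higher in mKate2+ cells alone (0.60, adjusted p = 0.0284), and Coa4, Coa5 and Higd1a were not called, although without mKate2+ replicate 2 Higd1a was lower (-0.44, adjusted p = 0.0412).

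Complex I had 7 higher and 2 lower factors of 13 in mKate2- cells, and 11 higher and 1 lower in mKate2+ cells, or 5 higher and 2 lower without mKate2+ replicate 2. Over all genes tested, the shares called higher and lower were 29.3% and 33.8%, 28% and 32.1%, and 26.1% and 29.9% in the same order. Ndufaf5, which hydroxylates an arginine of the Ndufs7 subunit, was at 16.1, 16.12 and 13.03 CPM in astrocytes, 32.26, 26.02 and 27.4 CPM in mKate2- cells, and 24.7, 35.94 and 29.17 CPM in mKate2+ cells. All SB28 values exceeded all astrocyte values. The log2 difference was 0.92 ± 0.15 in mKate2- cells (adjusted p = 0.00116) and 0.99 ± 0.18 in mKate2+ cells (adjusted p = 0.00253). Among the proteins of the MCIA complex, which builds the membrane arm, Ecsit, Ndufaf1 and Acad9 were higher by 0.59 to 0.86 in both groups, and Timmdc1 differed by 0.32 (adjusted p = 0.0613) in mKate2- cells and was higher by 0.44 in mKate2+ cells. Tmem126b, a further MCIA protein, went the other way. It was at 20.6, 18.37 and 18.53 CPM in astrocytes, 14.37, 11.61 and 11.6 CPM in mKate2- cells, and 10.36, 10.99 and 13.05 CPM in mKate2+ cells, with differences of -0.61 ± 0.15 (adjusted p = 0.00856) and -0.74 ± 0.16 (adjusted p = 0.00536) and no overlap with the astrocytes.

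The partners Ndufaf3 and Ndufaf4, which bind each other on the early Q module, also differed in direction. Ndufaf4 was higher by 0.57 and 0.67 in the 2 SB28 groups. Ndufaf3 was at 29.52, 17.9 and 16.03 CPM in astrocytes, 10.78, 11.47 and 9.751 CPM in mKate2- cells and 11.25, 20.49 and 11.74 CPM in mKate2+ cells. It was lower in mKate2- cells (-0.98 ± 0.24, adjusted p = 0.00876). In mKate2+ cells its difference of -0.54 was not called (adjusted p = 0.168), and without replicate 2 it was -0.87 (adjusted p = 0.0453). Ndufaf8, the stabilizing partner of Ndufaf5, was at 7.102, 5.719 and 5.48 CPM in astrocytes, 10.74, 6.927 and 7.933 CPM in mKate2- cells and 9.357, 20.66 and 8.094 CPM in mKate2+ cells. Its call in mKate2+ cells (1.06 ± 0.37, adjusted p = 0.0382) rested on the library at 20.66, without which the difference was 0.53 (adjusted p = 0.101).

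**Figure D2:**
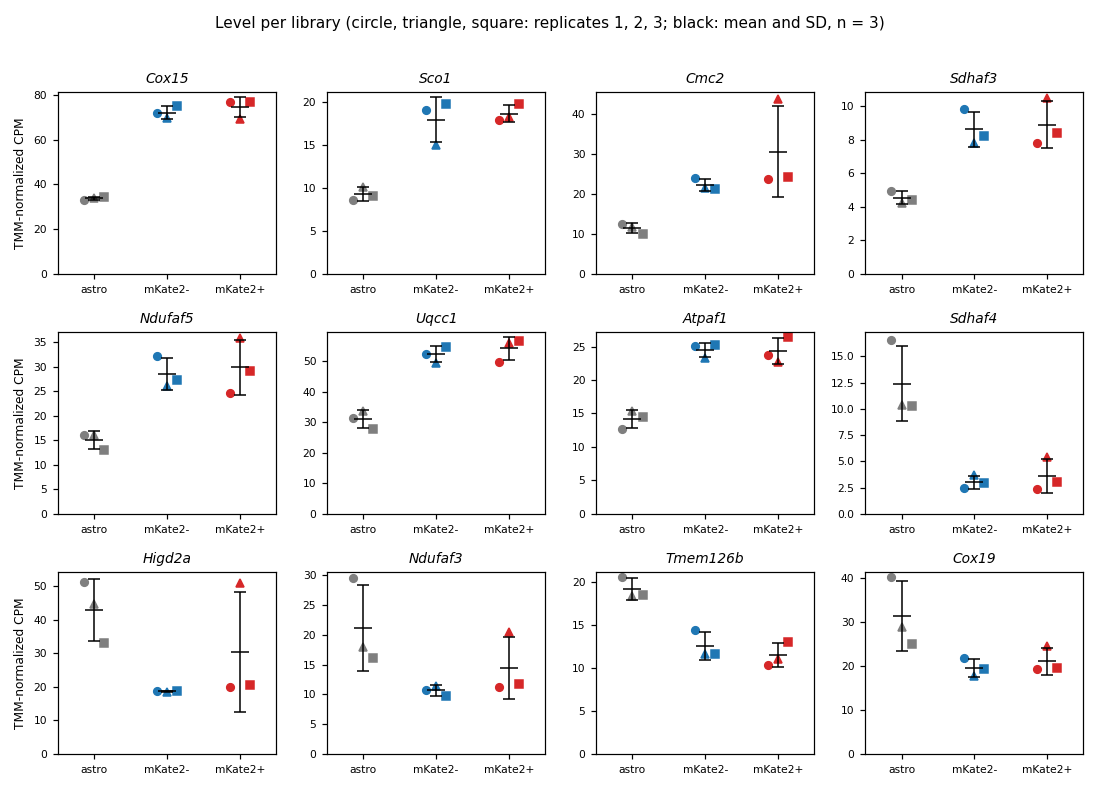
TMM-normalized CPM of 12 assembly factors in each library, by group, with the replicate number as the symbol and the mean and SD of 3 libraries in black; each y axis starts at 0. Cox15, Sco1 and Uqcc1 separate both SB28 groups from the astrocytes, and in Cmc2, Higd2a and Ndufaf3 replicate 2 of the mKate2+ cells (red triangle) lies above the other mKate2+ libraries.

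Complex II has only 4 assembly factors, and they split. Sdhaf3, which protects the iron-sulfur subunit Sdhb, was at 4.955, 4.208 and 4.406 CPM in astrocytes, 9.797, 7.786 and 8.231 CPM in mKate2- cells and 7.798, 10.5 and 8.391 CPM in mKate2+ cells. It was higher by 0.93 ± 0.20 (adjusted p = 0.00478) and 0.98 ± 0.22 (adjusted p = 0.00615), and Sdhaf2, which attaches flavin to Sdha, by 0.48 and 0.49. Sdhaf4, the chaperone of flavinylated Sdha, showed the largest difference among the 47 tested. It was at 16.56, 10.37 and 10.3 CPM in astrocytes, 2.431, 3.685 and 2.909 CPM in mKate2- cells and 2.395, 5.455 and 2.995 CPM in mKate2+ cells, and the groups did not overlap. It was 4.1-fold lower in mKate2- cells (log2 difference -2.04 ± 0.28, adjusted p = 0.000485) and 3.42-fold lower in mKate2+ cells (-1.78 ± 0.36, adjusted p = 0.00405). A gene model on the opposite strand, Gm26524, shares 12.7% of its exonic bases. Sdhaf1, the second Sdhb factor, differed by -0.32 and -0.37 and was not called. Its reads are uncertain, since 69.6% of its exonic bases overlap E130208F15Rik on the opposite strand.

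In complex III, Uqcc1 and Uqcc2, which hold new cytochrome b together, were higher in both SB28 groups. Uqcc1 was at 31.34, 33.78 and 27.84 CPM in astrocytes, 52.4, 49.6 and 54.84 CPM in mKate2- cells and 49.9, 56.1 and 56.72 CPM in mKate2+ cells, a rise of 0.76 ± 0.12 (adjusted p = 0.000945) and 0.81 ± 0.13 (adjusted p = 0.00144). Uqcc2 was at 24.65, 25.13 and 15.67 CPM in astrocytes, 48.37, 30.78 and 33.72 CPM in mKate2- cells and 36.56, 127 and 40.56 CPM in mKate2+ cells. The log2 difference of Uqcc2 was 0.79 in mKate2- cells (adjusted p = 0.0212, and 0.0807 without mKate2- replicate 1). In mKate2+ cells it was 1.64 ± 0.49 (adjusted p = 0.0206), or 0.83 (adjusted p = 0.0231) without replicate 2, whose 127 CPM was the outlying value, and the call was lost without astrocyte replicate 2 or 3 (adjusted p = 0.051 and 0.0548). Uqcc3, the third member of this group, was lower in mKate2- cells (-0.58, adjusted p = 0.0356) and differed by -0.08 in mKate2+ cells, or by -0.58 (adjusted p = 0.0876) without mKate2+ replicate 2. Of the factors that complete the complex with the Rieske protein, Bcs1l, which carries it across the inner membrane, was called in mKate2+ cells (0.63, adjusted p = 0.0316), whereas Lyrm7 and Ttc19 were called in neither comparison.

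All 3 factors of complex V, ATP synthase, were higher in both SB28 groups. Of all genes tested, 29.3% were called higher in mKate2- cells and 28% in mKate2+ cells. Atpaf1, the chaperone of the beta subunit, was at 12.72, 15.41 and 14.46 CPM in astrocytes, 25.07, 23.33 and 25.22 CPM in mKate2- cells and 23.67, 22.71 and 26.45 CPM in mKate2+ cells. Its log2 differences were 0.79 ± 0.13 (adjusted p = 0.00127) and 0.77 ± 0.15 (adjusted p = 0.00339), with no overlap. Tmem70 was higher by 0.74 and 0.78, and Atpaf2, the chaperone of the alpha subunit, by 0.35 and 0.44 (adjusted p = 0.0435 and 0.023), the smallest of the 3. The Atpaf2 call was lost without astrocyte replicate 2 or 3 and without mKate2- replicate 2 or 3 against mKate2- cells, and without astrocyte replicate 2 or 3 or mKate2+ replicate 1 or 3 against mKate2+ cells.

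Calls that held when each of the 6 libraries was left out in turn numbered 17 of 26 in mKate2- cells and 15 of 28 in mKate2+ cells. Lost in at least 1 of these fits were Atpaf2, Cox16, Cox19, Foxred1, Ndufaf4, Ndufaf7 and Uqcc2 in both comparisons, Pet100 and Uqcc3 in mKate2- cells, and Bcs1l, Coa7, Ndufaf2, Ndufaf6, Ndufaf8 and Timmdc1 in mKate2+ cells. With each library left out, the higher calls in mKate2- cells ranged from 15 to 23 and the lower calls from 4 to 7, and in mKate2+ cells from 15 to 24 and from 2 to 6. The lowest counts in mKate2+ cells came without astrocyte replicate 2 or 3 or mKate2+ replicate 3 (15 higher), and the highest count of lower genes without mKate2+ replicate 2. The lower calls in mKate2- cells numbered 4 without mKate2- replicate 2 or 3. Counts over all genes moved as well. At an unadjusted p below 0.05 in the edgeR test, 8932 genes passed in mKate2- cells with all libraries. This number was 7872 without mKate2- replicate 3 and 9191 without astrocyte replicate 1. In mKate2+ cells it was 8659 with all libraries and 7712 without astrocyte replicate 2. The share of calls over all genes that held in every fit was not counted. Exons of 12 of the 49 genes share at least 10% of their bases with another gene. Among the other 37, 17 were higher and 5 lower in mKate2- cells, and 22 higher and 2 lower in mKate2+ cells, or 15 and 4 without mKate2+ replicate 2. In the same order, 29.3% and 33.8%, 28% and 32.1%, and 26.1% and 29.9% of all genes tested were called.

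The subunits that these factors assemble gave other counts. Of 79 tested nuclear-encoded subunits, 3 passed the filter only through the astrocytes. Of the other 76, 14 rose from astrocytes to mKate2- cells (18.4%) and 8 fell (10.5%), with a median log2 difference of 0.08, and 19 were higher (25%) and 1 lower (1.32%) in mKate2+ cells, with a median of 0.64. Of all genes tested, 29.3% and 33.8% were called in the first comparison and 28% and 32.1% in the second. Without genes that passed through 1 group alone, the shares were 32.9% and 26.2%, and 31.5% and 24%. The median in mKate2+ cells rested on replicate 2, without which it was 0.13 and the counts over the 76 were 13 and 3. In mKate2- cells the higher subunits were led by Atp5g3, a gene of the ATP synthase c-ring that Tmem70 serves. Atp5g3 was at 191.5, 165.1 and 135.4 CPM in astrocytes, 320.9, 272.6 and 314.2 CPM in mKate2- cells and 316.4, 570.9 and 352 CPM in mKate2+ cells (0.89, adjusted p = 0.00126, and 1.33, adjusted p = 0.00244, or 1.03 without mKate2+ replicate 2). Cyc1, cytochrome c1 of complex III, and Cox7b of complex IV were higher by 0.70 and 0.69 in mKate2- cells and by 0.88 and 1.39 in mKate2+ cells. Without mKate2+ replicate 2, where Cox7b was at 187.3 CPM against 55.39 and 60.45 CPM in the other mKate2+ libraries, its difference was 0.60 (adjusted p = 0.0144). The Cox7b call in mKate2+ cells was lost without any 1 of the 3 astrocyte libraries (adjusted p = 0.0702 to 0.0754). Cyc1 stood at 160.9, 131.1 and 114.3 CPM in astrocytes, 226.5, 198.6 and 233.9 CPM in mKate2- cells and 226.8, 265 and 256.8 CPM in mKate2+ cells, and all SB28 values were above all astrocyte values.

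The 3 subunits that passed the filter only through the astrocytes were tissue-specific isoforms of complex IV below 1 CPM in each SB28 library, so that their direction was fixed by the filter and their levels are given as a description. Cox6b2, an isoform best known from testis, was at 22.38, 29.16 and 25.34 CPM in astrocytes and at 0.1089 to 0.9138 CPM in the 6 SB28 libraries. Cox4i2 was at 5.615, 1.867 and 1.983 CPM in astrocytes and at 0 to 0.1671 CPM in SB28 cells, and Cox7a1, the isoform of heart and skeletal muscle, at 1.363, 1.541 and 0.5508 CPM against 0.03629 to 0.2644 CPM.

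The mRNAs of mitochondrial DNA, whose proteins form the core onto which assembly factors act, lay on the other side. Of 12 tested, 4 (mt-Atp6, mt-Co2, mt-Nd3 and mt-Nd4l) passed the filter for mKate2- cells only through the astrocytes, as did 3 of these, without mt-Nd3, for mKate2+ cells, which fixed their direction. The other 8 were lower in mKate2- cells, with a median log2 difference of -1.39. In mKate2+ cells 0 of the other 9 were higher and 5 were lower, with a median of -1.21. Without mKate2+ replicate 2 the counts over these 9 were also 0 and 5, and the median was -0.92. Among all genes that did not pass through 1 group alone, 26.2% were called lower in mKate2- cells and 24% in mKate2+ cells. Without mKate2+ replicate 2, 29.9% of all genes tested were called lower. mt-Nd6, the one on the light strand, was at 388.7, 495.3 and 562.4 CPM in astrocytes, 121.2, 108.5 and 153.1 CPM in mKate2- cells and 134.4, 90.19 and 169.6 CPM in mKate2+ cells. The groups were well separated (-1.91 ± 0.18, adjusted p = 9.22e-05, and -1.88 ± 0.26, adjusted p = 0.000603). mt-Nd4l had 0.3303, 1.067 and 2.561 CPM in astrocytes, 0.1451, 0.4156 and 0.2644 CPM in mKate2- cells and 0.5291, 0.02769 and 0.593 CPM in mKate2+ cells. mt-Nd3 had 2.023, 3.052 and 3.553 CPM, 0.8346, 0.3602 and 1.289 CPM, and 1.03, 1.551 and 1.156 CPM in the same order. Both were thus very low in all 9 libraries, and mt-Nd4l overlapped between astrocytes and SB28 cells while mt-Nd3 did not. As the filter fixed the direction of both genes in mKate2- cells, these levels are given as a description. Several mitochondrial genes had far fewer counts than mt-Co1, at 3210 to 16900 CPM, among them mt-Co2 at 0.4628 to 1.404 CPM, and are uncertain, since nuclear copies of mitochondrial genes can be nearly identical to them.

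A further 15 assembly factors outside these gene families, all of which were tested, gave 3 higher and 6 lower in mKate2- cells, and 3 higher and 4 lower in mKate2+ cells, where the shares of all genes called were 29.3% and 33.8%, and 28% and 32.1%. Taco1, the translational activator of COX1, was at 15.9, 17.07 and 16.85 CPM in astrocytes, 33.67, 32.7 and 35.63 CPM in mKate2- cells and 34.28, 34.06 and 38.99 CPM in mKate2+ cells (1.04, adjusted p = 0.000179, and 1.11, adjusted p = 0.000332). Fmc1, of complex V, was at 2.642, 2.637 and 3.002 CPM in astrocytes, 7.366, 5.708 and 6.611 CPM in mKate2- cells and 5.152, 19.83 and 6.493 CPM in mKate2+ cells. It was higher by 1.25 and 1.92, or by 1.08 in mKate2+ cells without replicate 2, its highest library. Tmem177, which works with Cox20, was at 11.23, 9.215 and 7.601 CPM in astrocytes, 16.11, 13.63 and 12.92 CPM in mKate2- cells and 13.84, 16.26 and 16.25 CPM in mKate2+ cells. Every SB28 library lay above the astrocytes, by 0.61 and 0.73 on the log2 scale. However, the Tmem177 call in mKate2- cells was lost without mKate2- replicate 1 or 2 or astrocyte replicate 2. In mKate2+ cells it was lost without mKate2+ replicate 3. Smim20, which holds newly made COX1, was at 28.08, 19.91 and 18.86 CPM in astrocytes and at 1.754 to 2.903 CPM in SB28 cells (-3.28 ± 0.26, adjusted p = 3.61e-05, and -3.38 ± 0.27, adjusted p = 5.57e-05). Dmac2 was at 20.48, 15.23 and 18.64 CPM in astrocytes, 5.697, 5.985 and 7.107 CPM in mKate2- cells and 6.684, 7.144 and 7.501 CPM in mKate2+ cells. Oxa1l, the inner membrane insertase, was at 108.2, 79.32 and 66.67 CPM, 42.6, 42.2 and 43.67 CPM, and 48.96, 53.14 and 45.54 CPM in the same order. Neither gene overlapped between astrocytes and SB28 cells, with log2 differences of -1.53 and -0.98 in mKate2- cells and -1.35 and -0.78 in mKate2+ cells.

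**Figure D3:**
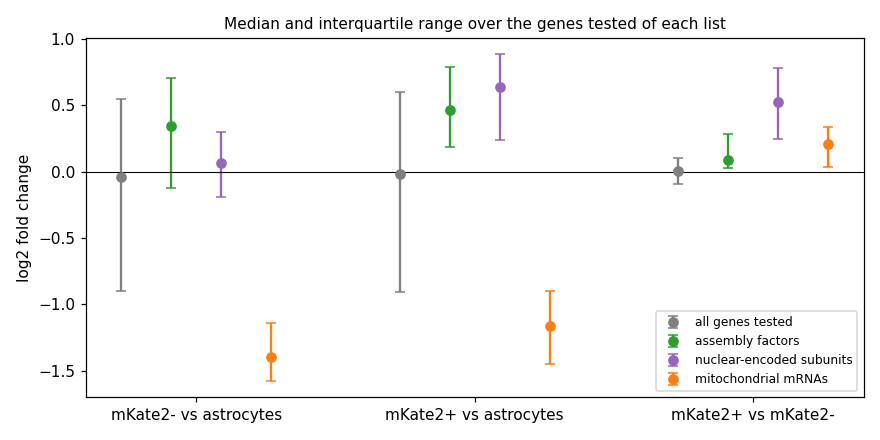
Median log2 fold change (points) and interquartile range (bars) over the genes tested of 4 lists in the 3 comparisons. The assembly factors lie above all genes in both comparisons with astrocytes (0.35 and 0.46), and the mitochondrial mRNAs lie below (-1.39 and -1.17). The latter include genes that passed the filter only through the astrocytes, which fixed their direction. Without those genes the medians are -1.39 and -1.21. Both comparisons of mKate2+ cells include replicate 2, without which the subunit median against astrocytes is 0.13.

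The third comparison, of mKate2+ with mKate2- SB28 cells, addressed whether cells that took up astrocyte mitochondria express assembly factors at another level. No difference was detectable. Of 11854 genes tested, 0 were called at an adjusted p below 0.05 (0%), with edgeR's quasi-likelihood test or with DESeq2. At an unadjusted p below 0.05 the edgeR test gave 241 genes (2.03%) and DESeq2 317. In the edgeR test 1 assembly factor, Ndufaf2, was among them, whereas DESeq2 gave 4, all higher. At a fold above 1.5 with an unadjusted p below 0.05 and a mean normalized count above 50, criteria taken from those of the study, 23 genes were higher (0.194%) and 20 were lower (0.169%), and 0 assembly factors passed in either direction. Of the 47 assembly factors, 38 had a log2 difference above 0, where 50.9% of all genes did, and the median was 0.09 against 0.00 over all genes. In 3 of them (Ndufaf2, Pet100 and Higd2a) all mKate2+ libraries were above all mKate2- libraries, and in 0 all were below, where 5.46% and 3.88% of all genes were so arranged.

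Ndufaf2, a late factor of complex I, had 12.26, 10.89 and 11.87 CPM in mKate2- cells and 13.17, 19.85 and 15.51 CPM in mKate2+ cells. The groups did not overlap, and the log2 difference was 0.46 ± 0.16 (unadjusted p = 0.0238, adjusted p = 0.923 in edgeR's test), or 0.27 ± 0.12 without mKate2+ replicate 2. A lincRNA on the opposite strand, B230220B15Rik, shares 65.6% of its exonic bases. Pet100 (0.96 ± 0.46), Higd2a (0.70 ± 0.35) and Cox14 (0.48 ± 0.25) followed by the size of p, with an adjusted p of 0.923 each. Cox14 was at 49.57, 37.1 and 41.22 CPM in mKate2- cells and 45, 86.26 and 48.86 CPM in mKate2+ cells. In these 3 genes the difference came from 1 library: without mKate2+ replicate 2 the values were 0.15, 0.09 and 0.12. The 4 genes with the smallest p among those below 0 were Ttc19, Tmem126b, Foxred1 and Sdhaf1, with differences of -0.14 to -0.06 and adjusted p from 0.923 to 0.963. Ttc19, which clears fragments of the Rieske protein, was at 24.53, 24.13 and 27.07 CPM in mKate2- cells and 23, 22.54 and 24.88 CPM in mKate2+ cells, and the ranges overlapped. Foxred1, a late complex I factor, was at 27.32, 25.8 and 31.77 against 24.9, 28.13 and 27.34 CPM, and Sdhaf1 at 6.822, 5.431 and 6.809 against 5.403, 6.175 and 6.879 CPM.

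**Figure D4:**
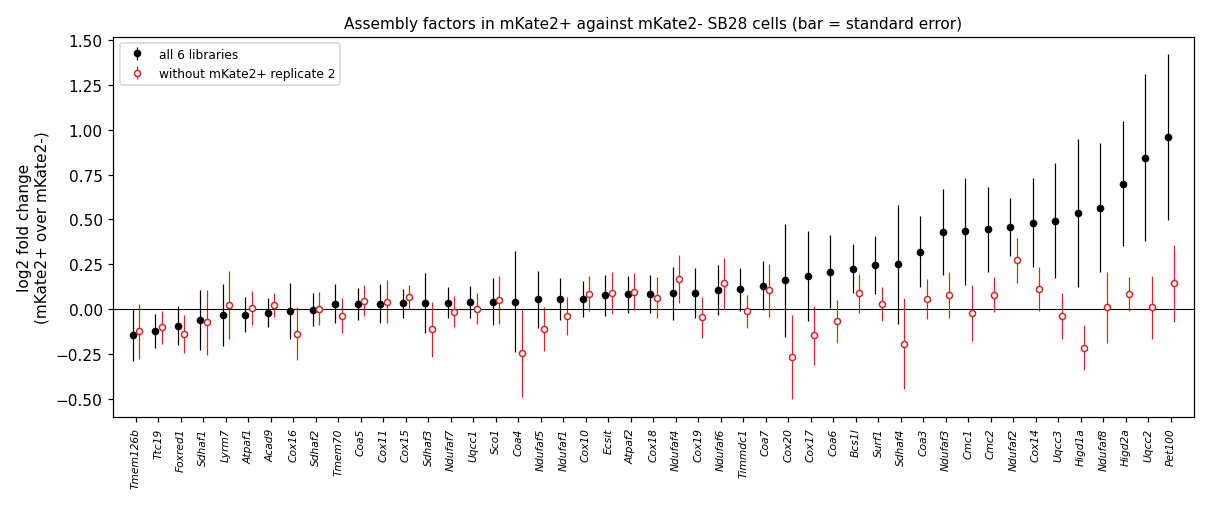
Log2 fold change of each assembly factor in mKate2+ over mKate2- SB28 cells with standard errors, from all 6 libraries (black) and without mKate2+ replicate 2 (open red). With all libraries 38 of 47 lie above 0, and without that library 27 do, within -0.27 to 0.27.

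Replicate 2 of the mKate2+ cells stood apart, in the assembly factors as in the nuclear-encoded subunits. In it, 16 of 47 were more than 1.5-fold above the mean of the other 5 SB28 libraries. When those 5 were set against one another without it, 1 gene was so in mKate2- replicate 1 and 0 in each of the other 4. Uqcc2 was at 127 CPM there and at 30.78 to 48.37 CPM in the other SB28 libraries, Higd1a at 75.54 against 23.06 to 30.78 CPM, and Uqcc3 at 21.88 against 8.884 to 10.23 CPM. The 16 genes had a median exonic length of 884.5 bases against 3609 for the other 31, but 3 of them, Higd1a, Ndufaf2 and Cox17, were longer than the median of 2490 bases over all 47. Over the 47 genes, which share the library and its depth, Spearman's rho between the log2 ratio in this library and exonic length was -0.65. Among the other 5 libraries, set against one another, it was -0.17 to 0.14. Nuclear-encoded subunits, which are shorter still, gave 58 of 79 above 1.5-fold in this library. The share of all genes above 1.5-fold in it was not counted, so neither count is shown to be particular to its list. The abundant mitochondrial mRNAs mt-Co1 and mt-Cytb were lower in it than in the other mKate2+ libraries, with mt-Co1 at 3210 CPM against 7987 and 8222 CPM, and mt-Cytb at 932.2 against 1827 and 2185 CPM, whereas mt-Nd3 was not, at 1.551 against 1.03 and 1.156 CPM. Without it, 27 of 47 assembly factors had a difference above 0 between mKate2+ and mKate2- cells, with a median of 0.01, and 19 of the 47 had changed sign, 0 of which were called in either fit. When a trend with gene length was removed from each library, 29 of 47 were above 0. Why this library differs was not tested.

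**Figure D5:**
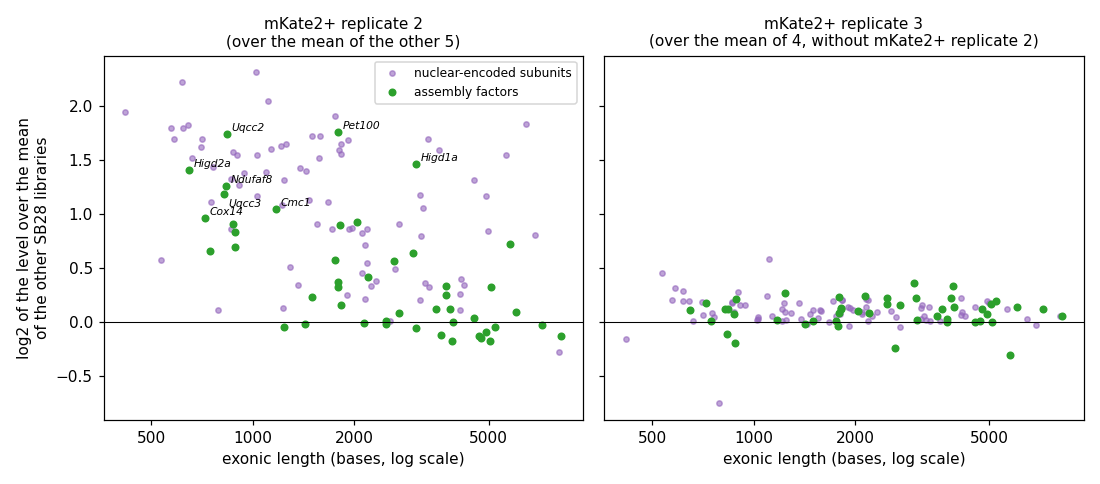
Log2 ratio of each gene's level in 1 mKate2+ library to the mean of other SB28 libraries (5 on the left, 4 on the right, where mKate2+ replicate 2 is left out) against exonic length (log axis), for 47 assembly factors (green) and 79 nuclear-encoded subunits (purple); a constant of 0.05 CPM was added. In replicate 2 (left) short genes such as Uqcc2 and Pet100 lie above 0, and in replicate 3 (right) 0 assembly factors exceed 1.5-fold.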

How the data were processed

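The authors deposited counts of reads per gene: per the labels and the methods, reads were trimmed with Trimmomatic 0.36, mapped to GRCm38 with STAR 2.5.2b, and counted with featureCounts of Subread 1.5.2. Strand setting and annotation release are not given in the sources used here, so overlapping genes are uncertain. The sort gates in the labels assign the CellTrace Violet dye otherwise than the methods do, and libraries were grouped by their titles. Symbols and exonic lengths came from GENCODE M21.

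Each comparison used its 6 libraries, genes above 1 CPM in at least 2 of them, TMM normalization, edgeR 4.0.16 (R 4.3.3) quasi-likelihood tests and Benjamini-Hochberg adjustment over all genes tested. Errors of log2 differences are standard errors, and levels are TMM-normalized CPM over 9 libraries. Scripts were tested on simulated data. Replicates are 3 distinct co-cultures by the methods, and no 2 libraries agreed within sampling noise.

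Values by library, or as ranges where groups are compared together, are given for up to 6 called assembly factors per direction with the largest change against astrocytes, the smallest p of each complex, the 4 smallest p per direction between SB28 groups, and up to 3 called genes per direction of the other lists. Marker genes, overlapping genes and the library that stood apart were named after their values were seen. Members and lists were chosen with earlier results of these data known. Alternatives were DESeq2 1.42.0, other size factors and filters, all 9 libraries in 1 fit, a replicate block, removal of a length trend (loess, span 0.3) and leaving out each library.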

Additional observations from a re-analysis of the deposited data

How the results depend on the processing

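Counts of assembly factors called against astrocytes were within 1.5 times the reported counts under DESeq2, other size factors, other filters, all 9 libraries in 1 fit and the replicate block. The exceptions were 5 lower calls in mKate2+ cells, where 3 were reported, with the length trend removed, and, among results that left out libraries, 15 to 24 higher and 2 to 6 lower in mKate2+ cells and 4 to 7 lower in mKate2- cells. Upper-quartile factors gave 17 higher in mKate2+ cells and moved the median of all genes there from -0.02 to -0.12. Members sharing under 10% of exonic bases with another gene, without mKate2+ replicate 2, which was added as an alternative after the data had been seen, gave 15 higher. Of the differences of single assembly factors recomputed under every alternative, signs changed for Sdhaf1 between SB28 groups, which was not called (-0.163 to 0.027 with each library left out, above 0 without replicate 1 of either group), and for Pet100 in mKate2+ cells against astrocytes, also not called (-0.069 with the replicate block, and -0.633 to 0.454 with each library left out, the lowest without mKate2+ replicate 2). Over all 47 assembly factors, leaving out mKate2+ replicate 2 changed the sign of 19 between SB28 groups, none of them called, and of 3 against astrocytes (Cmc1, Higd1a and Pet100), of which Higd1a was then called lower at -0.44. The cause was not tested. Between SB28 groups 0 were called under each alternative.

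Labels do not say that replicate numbers pair the libraries. Deviations of same-numbered libraries correlated at -0.15 to 0.25 and those of differently numbered libraries at -0.275 to 0.252, so the numbers were not taken as pairs. Between the SB28 groups the same-numbered values were -0.004, 0.136 and 0.17, against -0.178 to 0.082 for the others. The methods name 3 distinct co-cultures, so these correlations cannot exclude that the libraries are paired. A replicate block left 26 calls in mKate2- cells, 25 of them shared, and 23 of 28 in mKate2+ cells.

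With 3 libraries a group, small differences between SB28 groups were not detectable at this depth and spread.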
